A study of Mus musculus with 20 samples.

Results

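The neutrophil granule genes described here are 10 genes, Elane, Mpo, Prtn3, Ctsg, Ltf, Camp, Ngp, S100a8, S100a9 and Lcn2, read from the count table of a bulk RNA-seq experiment on mouse bone marrow-derived dendritic cells (BMDCs). They were taken by symbol, with no measured value used, and each of the 10 had a row among the 24421 genes of the table. Counts were high enough for a test in 6 of them (Mpo, Ltf, Ngp, S100a8, S100a9 and Lcn2), out of 12465 genes tested in all. The 20 libraries came from 5 wild-type C57BL/6 mice, named A to E, with 4 libraries per mouse and 1 in each group. Bone marrow cells were grown for 8 days with GM-CSF at 40 ng/mL, and the cultures of each mouse were then divided over 4 conditions. The DMSO Ova group had solvent (5% DMSO in the labels) and ovalbumin, the DMSO IC group solvent and IgG immune complexes of ovalbumin, the IBET Ova group 3.3 µM I-BET151 (iBET, an inhibitor of BET bromodomain proteins) and ovalbumin, and the IBET IC group iBET and the immune complexes, each for 4 hours with n = 5 mice. The labels have drug and stimulus added together and the cells sorted into lysis buffer with no gate named, whereas the methods have iBET added ahead of the stimulus and cells lysed in culture. A GM-CSF culture of whole marrow is not made of dendritic cells alone: granulocytes, monocytes and macrophages can be present, and no file gives the share of each.

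Neutrophils make their granule proteins in waves while they mature in the marrow, and pack them as they are made. Primary (azurophil) granules are filled at the promyelocyte stage with myeloperoxidase (Mpo) and the serine proteases neutrophil elastase (Elane), proteinase 3 (Prtn3) and cathepsin G (Ctsg). Secondary (specific) granules follow at the myelocyte and metamyelocyte stages, with lactoferrin (Ltf), the cathelicidin precursor (Camp), neutrophilic granule protein (Ngp) and lipocalin 2 (Lcn2), which binds bacterial siderophores. S100a8 and S100a9 are the subunits of calprotectin, a calcium- and zinc-binding protein that fills the cytosol of mature neutrophils and is also made by monocytes. C/EBP factors, PU.1 and RUNX1 are the transcription factors best known for driving these genes, and BET proteins bind acetylated chromatin at active genes and enhancers. Lcn2 is also switched on by inflammatory signals in many other cell types, so it marks neutrophils less strictly than the others.

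Promoter sequence is shown for the 5 genes on which the differences between mice turn: Ltf, Ngp, Camp and S100a9, whose levels went together from mouse to mouse, and S100a8, which lies near S100a9 on the chromosome, whose level varied less. Each line holds the bases that end just before the earlier of the RefSeq and GENCODE starts, 5′ to 3′ on the strand of the gene, from RefSeq sequence on GRCm38.p6. Capitals mark matches on either strand to a motif. The letters searched for C/EBP factors were TTNNGNAA, where N is any base. The letters for PU.1, the product of Spi1, were AGGAAG and those for RUNX factors, a family named after Runx1, were TGTGGT, while the TATA box, where transcription initiates in many tissue-restricted genes, was searched as TATAAA.
Ltf, chr9:111019151-111019270, plus strand: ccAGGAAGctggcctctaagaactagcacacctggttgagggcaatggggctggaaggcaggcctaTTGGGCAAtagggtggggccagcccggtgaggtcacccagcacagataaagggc
Ngp, chr9:110419627-110419746, plus strand: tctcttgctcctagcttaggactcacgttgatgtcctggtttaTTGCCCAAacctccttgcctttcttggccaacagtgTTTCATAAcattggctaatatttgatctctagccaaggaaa
Camp, chr9:109849618-109849706, minus strand: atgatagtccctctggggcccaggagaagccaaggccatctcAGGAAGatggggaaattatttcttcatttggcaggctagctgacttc
S100a9, chr3:90695722-90695841, minus strand: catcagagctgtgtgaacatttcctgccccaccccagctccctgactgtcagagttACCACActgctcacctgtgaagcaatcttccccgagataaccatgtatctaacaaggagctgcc
S100a8, chr3:90668858-90668977, plus strand: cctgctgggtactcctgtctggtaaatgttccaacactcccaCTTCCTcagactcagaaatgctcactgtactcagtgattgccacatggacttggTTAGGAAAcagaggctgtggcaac

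Over the whole 250 bases before the RefSeq start, the C/EBP letters were found in 5 of the 10 genes (Ltf, Ngp, S100a8, S100a9 and Lcn2), against 36.8% of 32851 promoters of that length. The PU.1 letters were found in 8 of the 10, all but Ngp and S100a9, against 29.5% of promoters. The RUNX letters stood in Ctsg and S100a9 (14% of promoters) and the TATA letters in Ctsg and S100a8 (12.4%). Thus Ltf, Ngp and S100a9 shared the C/EBP letters, Camp had none in this window, and S100a8 had them as well. These matches describe the letters only, and no binding was measured.

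On GRCm38, Elane (chromosome 10, 79886247-79888215) and Prtn3 (chromosome 10, 79874476-79883174) lay side by side on the plus strand, 3072 bases apart. S100a8 (chromosome 3, 90668978-90670035, plus strand) and S100a9 (chromosome 3, 90692632-90695721, minus strand) were 22596 bases apart and ran towards each other. Ltf (111019271-111042767), Camp (109847379-109849617) and Ngp (110419747-110423012) were all on chromosome 9. Mpo lay on chromosome 11 (87793581-87804413), Ctsg on chromosome 14 (56099881-56102574) and Lcn2 on chromosome 2 (32384633-32388252). All 10 are protein-coding in GENCODE M21. The annotation used for counting is not given in the sources used here.

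Total counts per library ranged from 16447491 to 29245150, with a median of 21764663, so that 3 counts, taken here as the detection floor, corresponded to 0.105 to 0.178 CPM (a gene's counts as a rate per library, on library sizes scaled by TMM). Rn45s, the ribosomal RNA precursor, took 2.70% to 8.61% of counts, and its share ran from 2.70% to 5.52% in mice A and B and from 4.72% to 8.61% in mice C, D and E. On the second principal component, which held 14.9% of the variance, the libraries of mice A and B (-33.8 to -18.6) stood apart from those of mice C, D and E (9.83 to 23.5). Of the 14 markers listed for the labelled cell type, Cd74 (mean 3220 CPM) and Itgax (2100 CPM) were the highest. Flt3 (1.55 CPM) and Cd209a (0.233 CPM) were the lowest. Gpnmb (1600 CPM) was the highest of the macrophage markers and C1qa (17.4 CPM) the lowest. Among the monocyte markers Fn1 (4710 CPM) was the highest and Cx3cr1 (0.208 CPM) the lowest.

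The granule genes spanned a wide range of levels, from near absence to above most of the genes tested. Per kilobase of exon (RPKM, on GENCODE M21 exon lengths), S100a9 (mean 19.0 over 20 libraries), S100a8 (14.1) and Lcn2 (8.53) were the highest, above 81.4%, 75.5% and 63.1% of the genes tested. Ngp (1.02), Ltf (0.350) and Camp (0.210) followed, and Mpo (0.0841), Prtn3 (0.0435), Elane (0.00239) and Ctsg (0.00183) came last. S100a9 was above S100a8 in only 12 of the 20 libraries, so the order of these neighbours was not fixed, whereas Lcn2 was above Ngp and Ngp above Ltf in 20 of 20. Camp was above Mpo in 14 of 20 libraries and Mpo above Prtn3 in 12 of 20. In bulk RNA, fewer cells of a type and less RNA per cell cannot be told apart.

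**Figure D1:**
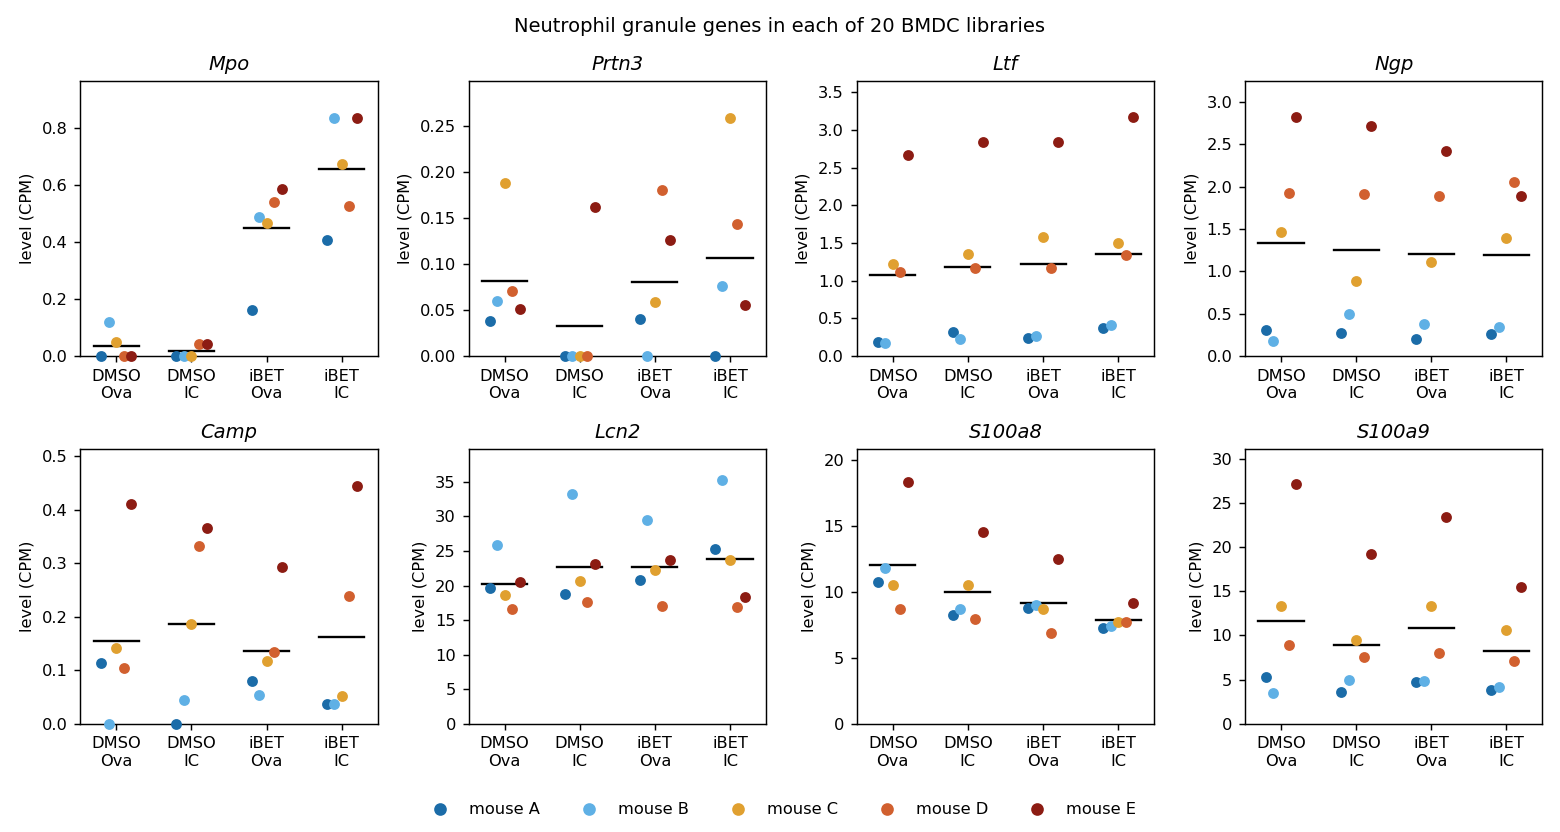
Level of 8 neutrophil granule genes in each library, in CPM on a linear axis that starts at 0 (the range differs between panels); points are libraries, coloured by mouse, and bars are group means (n = 5). Mpo is near 0 in every DMSO library and higher in every iBET library, while Ltf, Ngp, Camp and S100a9 are lower in mice A and B than in mouse E in every group.

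The first comparison asked how iBET changed these genes in cells given ovalbumin alone. Mpo rose and no other granule gene passed the test (quasi-likelihood fits in edgeR on all libraries, p adjusted over every gene tested, threshold 0.05). Mpo entered the test through its iBET groups alone, so its call was largely fixed by its being tested. Among all 12465 genes tested, 27.7% were called higher and 28.9% lower in this comparison, so 1 higher and 0 lower of the 6 tested granule genes is to be read beside a treatment that moved a large part of the genes. In cells given immune complexes the outcome was the same, 1 higher (Mpo) and 0 lower, beside 27.1% of all genes higher and 29% lower. Both comparisons use different libraries of the same 5 mice.

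Mpo encodes the peroxidase that forms hypochlorous acid in the phagosome. In mice A to E its raw counts were 0, 2, 1, 0 and 0 in DMSO Ova and 4, 9, 8, 12 and 14 in IBET Ova. With immune complexes they were 0, 0, 0, 1 and 1 in DMSO IC and 11, 22, 13, 11 and 15 in IBET IC. Every iBET library thus stood above every DMSO library under the same stimulus, although no library held more than 22 Mpo counts. The share of all genes with groups separated in this way was not counted. Of all genes tested, 27.7% were called higher with iBET in Ova and 27.1% in IC. In CPM, Mpo went from 0.0331 ± 0.0519 (SD, n = 5) to 0.448 ± 0.167 in Ova and from 0.0164 ± 0.0225 to 0.654 ± 0.189 in IC. Summed over mice, 47 counts against 3 gave a ratio of 16.6 (95% exact interval 5.34 to 83.3), and 72 against 2 a ratio of 35.8 (9.55 to 301). These intervals cover counting error only. The fitted log2 fold change, which at so few counts depends on the prior count, was 3.79 ± 0.64 (SE) in Ova (edgeR adjusted p = 4.21e-05) and 4.80 ± 0.64 in IC (adjusted p = 2.59e-06), higher in 5 of 5 mice each time. Mpo passed the filter on low counts through the iBET groups alone, so that a gene with this pattern had to differ in order to be tested. Over all libraries its level per kilobase was above that of only 1.61% of the genes tested.

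In mice A and B alone, the Ova difference was 2.57 on the log2 scale and missed the threshold (adjusted p = 0.118), against 4.78 in mice C, D and E (adjusted p = 5.37e-05). In IC, both sets of mice passed (6.83, adjusted p = 0.0101, and 4.33, adjusted p = 3.77e-05). Mice A and B had 0 Mpo counts in DMSO IC, so the size of 6.83 depends on the prior count. Mpo entered these fits through its iBET libraries, so that passing was largely fixed by its being tested. Fitted on the 10 libraries of 1 comparison only, Mpo fell under the filter on low counts and was not tested.

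Reads near Mpo moved with it. The next gene upstream on the same strand, Bzrap1 (Tspoap1 in GENCODE, named after its values were seen), ends 7652 bases before the start of Mpo. Bzrap1 went from 14.5 ± 8.42 CPM in DMSO Ova to 129 ± 37.1 in IBET Ova (log2 fold change 3.15 ± 0.43, adjusted p = 4.06e-06) and from 19.8 ± 10.1 in DMSO IC to 121 ± 40.3 in IBET IC (2.61 ± 0.42, adjusted p = 2.85e-05), higher in 5 of 5 mice in each. Mpo counts amounted to 0.184% of Bzrap1 counts in DMSO Ova (95% Poisson interval on the Mpo counts 0.0380% to 0.539%), 0.0886% in DMSO IC (0.0107% to 0.320%), 0.348% in IBET Ova (0.256% to 0.463%) and 0.555% in IBET IC (0.434% to 0.699%). These intervals are on counts pooled over mice and cover counting error only, and a difference between the shares was not tested. Lpo, the peroxidase gene downstream of Mpo, had 3 counts in all 20 libraries. An antisense gene, Gm11505, overlaps Mpo and has no row in the table, and the strand setting of the counting is not given in the sources used here. The part of these neighbours in the Mpo counts was not tested.

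**Figure D2:**
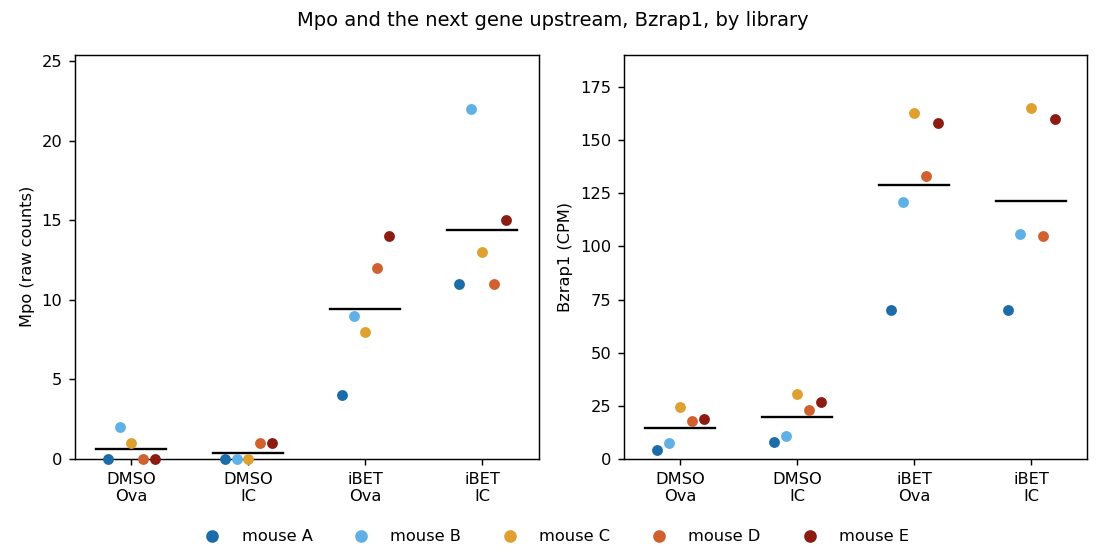
Raw counts of Mpo (left) and CPM of the upstream neighbour Bzrap1 (right) by library; points are libraries, coloured by mouse, and bars are group means (n = 5). Both genes are higher in every iBET library than in every DMSO library, Mpo at 4 to 22 counts and Bzrap1 at 70.2 to 165 CPM, and mouse A is the lowest of the 5 for Bzrap1 in each group.

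The other primary granule genes were close to absent from these cultures. Elane, the neutrophil elastase gene, had 1 count in all, in the DMSO Ova library of mouse C. Ctsg also had 1, in the DMSO Ova library of mouse A. Both were at 0 in the other 19 libraries, which allows up to 0.105 to 0.178 CPM in each of them. Prtn3, the proteinase 3 gene, had 33 counts in 14 of the 20 libraries, never more than 5 in any, and overlaps Lppr3 (Plppr3), a gene on the other strand with 36 counts. Its counts in mice A to E were 1, 1, 4, 2 and 1 in DMSO Ova, 1, 0, 1, 4 and 3 in IBET Ova, 0, 0, 0, 0 and 4 in DMSO IC, and 0, 2, 5, 3 and 1 in IBET IC. The groups overlapped. Summed, 9 counts against 9 gave an iBET to DMSO ratio of 1.06 in Ova (95% interval 0.372 to 3.01) and 11 against 4 a ratio of 2.73 in IC (0.810 to 11.8). Exact two-sided permutation tests on Prtn3, which take the libraries as unpaired, gave p = 0.984 and p = 0.246, with 0.00794 the smallest possible. A change of Prtn3 the size of that of Mpo was thus not seen in Ova, and in IC the interval reached 11.8-fold.

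None of the secondary granule genes passed the test for iBET, with groups only or with the mouse as a block in the fit. For each of them the iBET and DMSO libraries overlapped. The fit on groups ignores that libraries are paired by mouse, and its SE holds the spread between mice. Ltf encodes lactoferrin, an iron-binding protein. In mice A to E it stood at 0.189, 0.178, 1.22, 1.12 and 2.67 CPM in DMSO Ova and at 0.242, 0.271, 1.57, 1.17 and 2.85 in IBET Ova. In IC it stood at 0.318, 0.227, 1.35, 1.17 and 2.84 with DMSO and at 0.370, 0.417, 1.50, 1.33 and 3.17 with iBET. Within each mouse the iBET library was slightly higher, in 5 of 5 mice under each stimulus, while the spread between mice was far wider. The log2 fold change was 0.20 ± 0.79 in Ova (adjusted p = 0.846) and 0.13 ± 0.78 in IC (adjusted p = 0.899). With the block it was 0.19 ± 0.16 (adjusted p = 0.410) and 0.24 ± 0.15 (adjusted p = 0.268).

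Ngp encodes a cystatin-related protein of the specific granules. Its CPM in mice A to E were 0.302, 0.178, 1.46, 1.93 and 2.82 in DMSO Ova against 0.202, 0.380, 1.11, 1.89 and 2.43 in IBET Ova, and 0.265, 0.499, 0.887, 1.92 and 2.72 in DMSO IC against 0.259, 0.341, 1.40, 2.05 and 1.89 in IBET IC. The groups overlapped fully, and the log2 fold changes were -0.15 ± 0.74 (adjusted p = 0.879) and -0.15 ± 0.75 (adjusted p = 0.880). With the block they were -0.15 ± 0.19 (adjusted p = 0.505) and -0.05 ± 0.20 (adjusted p = 0.821). Camp, the precursor of the antimicrobial peptide CRAMP, had 0 to 9 counts per library and was too low for the fit. Its summed counts were 17 in DMSO Ova, 15 in IBET Ova, 22 in DMSO IC and 16 in IBET IC, giving iBET to DMSO ratios of 0.934 (95% interval 0.434 to 1.99) and 0.722 (0.355 to 1.44). The exact permutation p for Camp was 0.786 in Ova and 0.825 in IC. That test takes the libraries as unpaired, so the spread between mice can hide a small effect.

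Lcn2 was the secondary granule gene with the most reads, at 331 to 930 counts per library. Its CPM in mice A to E were 19.7, 25.9, 18.6, 16.6 and 20.5 in DMSO Ova and 20.8, 29.4, 22.2, 17.1 and 23.6 in IBET Ova, higher with iBET in 5 of 5 mice but with overlapping groups. In IC the values were 18.8, 33.2, 20.6, 17.6 and 23.1 with DMSO and 25.3, 35.2, 23.7, 16.9 and 18.4 with iBET, higher in 3 of 5 mice. The log2 fold change was 0.16 ± 0.20 (adjusted p = 0.504) in Ova and 0.08 ± 0.20 (adjusted p = 0.747) in IC. With the block it was 0.15 ± 0.085 (adjusted p = 0.117) and 0.08 ± 0.084 (adjusted p = 0.429). Mouse B had the highest Lcn2 level of the 5 in every group, and mouse D the lowest.

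S100a8 was lower with iBET in every mouse, by a small margin. In mice A to E its CPM were 10.7, 11.8, 10.6, 8.72 and 18.4 in DMSO Ova and 8.77, 9.00, 8.69, 6.84 and 12.5 in IBET Ova. In IC they were 8.27, 8.67, 10.6, 7.91 and 14.5 with DMSO and 7.25, 7.39, 7.71, 7.73 and 9.18 with iBET. The groups overlapped through the spread between mice, chiefly through the high values of mouse E. With groups only, the log2 fold change was -0.39 ± 0.19 in Ova (adjusted p = 0.096) and -0.35 ± 0.20 in IC (adjusted p = 0.135), neither past the threshold. With the mouse as a block in the fit it was -0.38 ± 0.09 (adjusted p = 0.00144) and -0.32 ± 0.09 (adjusted p = 0.00609), so the block brought S100a8 under the threshold in both comparisons. That fit called 68.7% of all genes in Ova and 68% in IC, in either direction. Without mouse E, the fit on groups gave -0.33 in Ova (adjusted p = 0.0295). With any other mouse left out, S100a8 did not pass in Ova, and in IC it did not pass whichever mouse was left out.

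S100a9, the partner of S100a8 in calprotectin, did not pass in either fit. Its CPM in mice A to E were 5.29, 3.50, 13.3, 8.93 and 27.1 in DMSO Ova and 4.69, 4.88, 13.4, 8.02 and 23.4 in IBET Ova, lower with iBET in 3 of 5 mice. In IC they were 3.55, 4.99, 9.52, 7.54 and 19.2 with DMSO and 3.81, 4.20, 10.6, 7.15 and 15.5 with iBET, again lower in 3 of 5. The log2 fold change was -0.09 ± 0.56 (adjusted p = 0.901) in Ova and -0.15 ± 0.57 (adjusted p = 0.843) in IC, and with the block -0.06 ± 0.11 (adjusted p = 0.618) and -0.09 ± 0.115 (adjusted p = 0.510).

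**Figure D3:**
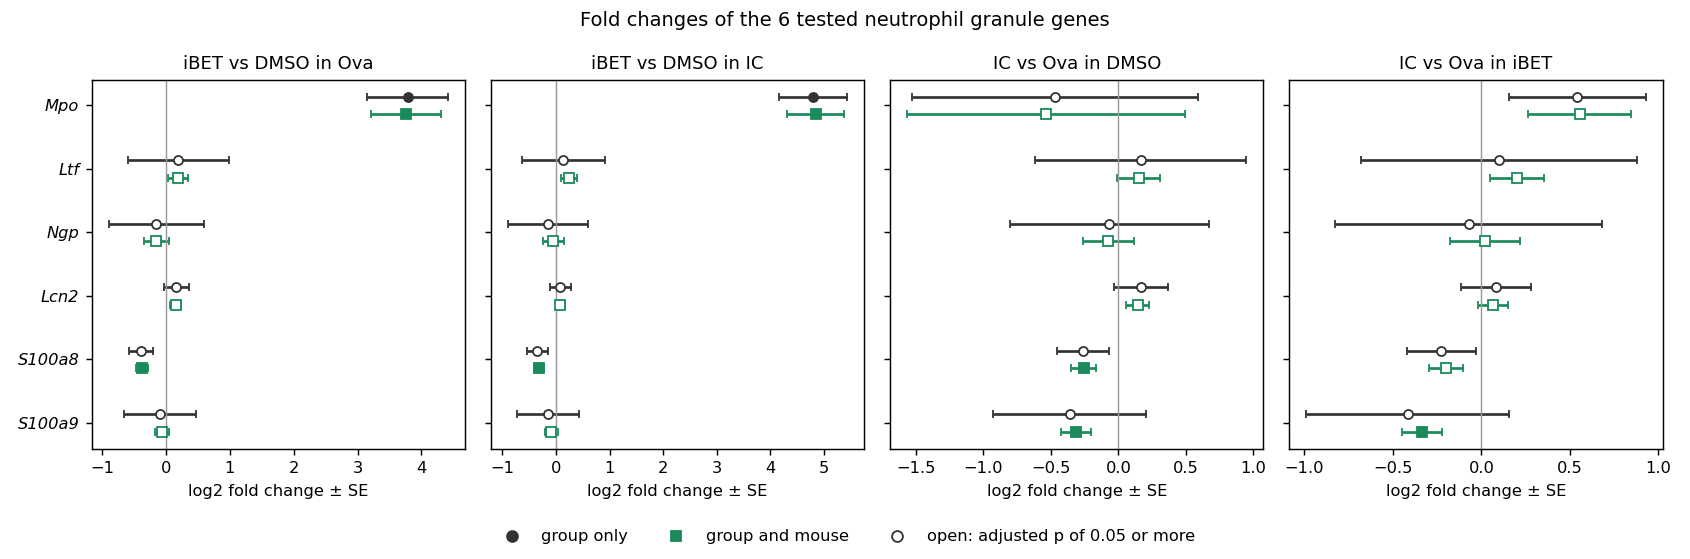
Log2 fold change ± SE of the 6 tested genes in 4 comparisons, from the fit on groups (circles) and the fit on group and mouse (squares); filled symbols have an adjusted p under 0.05, and the horizontal range differs between panels. Mpo is filled in both iBET comparisons in both fits, and S100a8 is filled there in the fit with mouse. Mpo passed the filter on low counts through the iBET groups alone.

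The next question was what immune complexes, which engage Fcγ receptors, did to these genes. In the fit on groups, 0 of the 6 tested genes were called in DMSO and 0 in iBET, with 0 at an unadjusted p under 0.05 in either, beside 20.3% and 11.8% of all genes called in either direction. S100a8 was lower in IC than in Ova in 5 of 5 mice with DMSO (log2 fold change -0.26 ± 0.19, adjusted p = 0.373) and in 4 of 5 with iBET (-0.23 ± 0.20, adjusted p = 0.524). S100a9 was lower in 4 of 5 mice with DMSO (-0.36 ± 0.57, adjusted p = 0.713) and in 5 of 5 with iBET (-0.42 ± 0.57, adjusted p = 0.712). With the mouse as a block, 2 genes were called lower with DMSO, S100a8 (-0.26 ± 0.09, adjusted p = 0.0332) and S100a9 (-0.31 ± 0.11, adjusted p = 0.0339), and 1 with iBET, S100a9 (-0.34 ± 0.11, adjusted p = 0.0326). S100a8 with iBET was at -0.20 ± 0.10 in that fit (adjusted p = 0.127). That fit called 38.1% of all genes with DMSO and 28.9% with iBET.

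Lcn2, a gene that inflammatory signals can induce, was 0.17 ± 0.20 higher on the log2 scale in IC than in Ova with DMSO (adjusted p = 0.615) and 0.08 ± 0.20 with iBET (adjusted p = 0.844). Ltf stood at 0.17 ± 0.78 and 0.10 ± 0.78, and Ngp at -0.07 ± 0.74 and -0.07 ± 0.75, with adjusted p from 0.918 to 0.970. Mpo had 3 and 2 counts in the DMSO groups, a ratio of 0.677 (0.0565 to 5.91), and 72 against 47 with iBET, a ratio of 1.46 (0.997 to 2.16). Its fitted log2 difference with iBET was 0.54 ± 0.39 (adjusted p = 0.414). Prtn3 and Camp gave exact permutation p from 0.325 to 0.794 for these contrasts, with the libraries again taken as unpaired.

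A test of whether the effect of iBET differed between Ova and IC called 0 of the 6 genes, with 0 at an unadjusted p under 0.05, beside 0.0401% of all genes. With the block it also called 0 of 6, beside 0.818% of all genes. The iBET effects on S100a8 and Mpo under each stimulus are therefore given side by side and not as different.

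For the tested granule genes other than Mpo, the range over 5 mice was wider than the differences between treatments. A range over 5 mice and a difference between 2 groups are unlike measures. In a fit of group and mouse, 5 of the 6 tested genes differed between mice (edgeR quasi-likelihood F test, adjusted p under 0.05), Mpo being the other (adjusted p = 0.107), beside 49.2% of all genes. Ltf spanned 10.2-fold between mice (adjusted p = 1.16e-10), Ngp 9.44-fold (6.50e-09) and S100a9 4.86-fold (1.16e-10), each highest in mouse E and low in mice A and B. The log2 range between mice of Ltf (3.36) and Ngp (3.24) was wider than that of 99.8% of the genes tested, and that of S100a9 (2.28) wider than that of 98.8%. S100a8 spanned 1.72-fold (adjusted p = 4.87e-05) and Lcn2 1.81-fold (1.20e-05). The median log2 range of all genes tested was 0.325. For S100a8 the range rested on mouse E: its means in mice A to D ran from 7.80 to 9.37 CPM. Without mouse E, S100a8 no longer passed (adjusted p = 0.11).

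As means over the 4 libraries of a mouse, Ltf stood at 0.280 ± 0.080 (SD, n = 4) CPM in mouse A, 0.273 ± 0.103 in B, 1.41 ± 0.16 in C, 1.20 ± 0.094 in D and 2.88 ± 0.21 in E. Ngp stood at 0.257 ± 0.041, 0.349 ± 0.133, 1.21 ± 0.27, 1.95 ± 0.071 and 2.46 ± 0.42 in the same order. S100a9 went from 4.33 ± 0.80 in A and 4.39 ± 0.69 in B to 11.7 ± 1.9 in C, 7.91 ± 0.77 in D and 21.3 ± 5.0 in E. All libraries of mice A and B were below all libraries of mice C, D and E for each of these genes. Camp, although too low for the fit, had summed counts of 6, 3, 10, 19 and 32 in mice A to E, and without the filter on low counts it also differed between mice (adjusted p = 0.00271). Prtn3 had 2 and 3 counts in mice A and B and 10, 9 and 9 in mice C, D and E (adjusted p = 0.314 without the filter).

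S100a8 and Lcn2 had another order. S100a8 was at 8.75 ± 1.46 CPM in mouse A, 9.21 ± 1.86 in B, 9.37 ± 1.41 in C and 7.80 ± 0.77 in D, with mouse E above them at 13.6 ± 3.8. Lcn2 was highest in mouse B (30.9 ± 4.1) and lowest in mouse D (17.0 ± 0.4), with mice A, C and E at 21.2 ± 2.9, 21.3 ± 2.2 and 21.4 ± 2.4. Over the 20 libraries, as deviations from the group means, Ltf correlated with Ngp (Pearson r = 0.937), S100a9 (0.957) and Camp (0.831), but less with S100a8 (0.523) and negatively with Lcn2 (-0.473). These points share mice: once the mean of each mouse was also taken out, Ltf correlated with Ngp at 0.164 and with S100a9 at 0.220, whereas Ngp and S100a9 remained at 0.860. Lcn2 then correlated at 0.261 with Ltf, 0.475 with Ngp and -0.0808 with Camp.

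The ratio of S100a9 to S100a8, in reads per kilobase, differed most between mice. It was 0.659 ± 0.063 in mouse A and 0.659 ± 0.178 in B, and 1.69 ± 0.36 in C, 1.35 ± 0.15 in D and 2.11 ± 0.32 in E (SD, n = 4). Its highest value in mice A and B (0.766) was below its lowest in mice C, D and E (1.20). By group the ratio was 1.21 ± 0.67 in DMSO Ova, 1.50 ± 0.79 in IBET Ova, 1.11 ± 0.47 in DMSO IC and 1.35 ± 0.67 in IBET IC (n = 5). Within mice, in the order A to E, it went with iBET in Ova from 0.655 to 0.711, 0.394 to 0.721, 1.67 to 2.04, 1.36 to 1.56 and 1.96 to 2.49, higher in 5 of 5 mice. The mean log2 difference was 0.36 ± 0.30 (SD, n = 5), and an exact two-sided test over sign flips, added after these values were seen, gave p = 0.0625, the smallest that 5 pairs allow. In IC it was higher in 3 of 5 mice, at 0.24 ± 0.27 (exact p = 0.25). The transcripts of the calprotectin subunits thus did not keep a fixed ratio between cultures. The absolute value of the ratio depends on the exon lengths used, its order between mice does not.

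**Figure D4:**
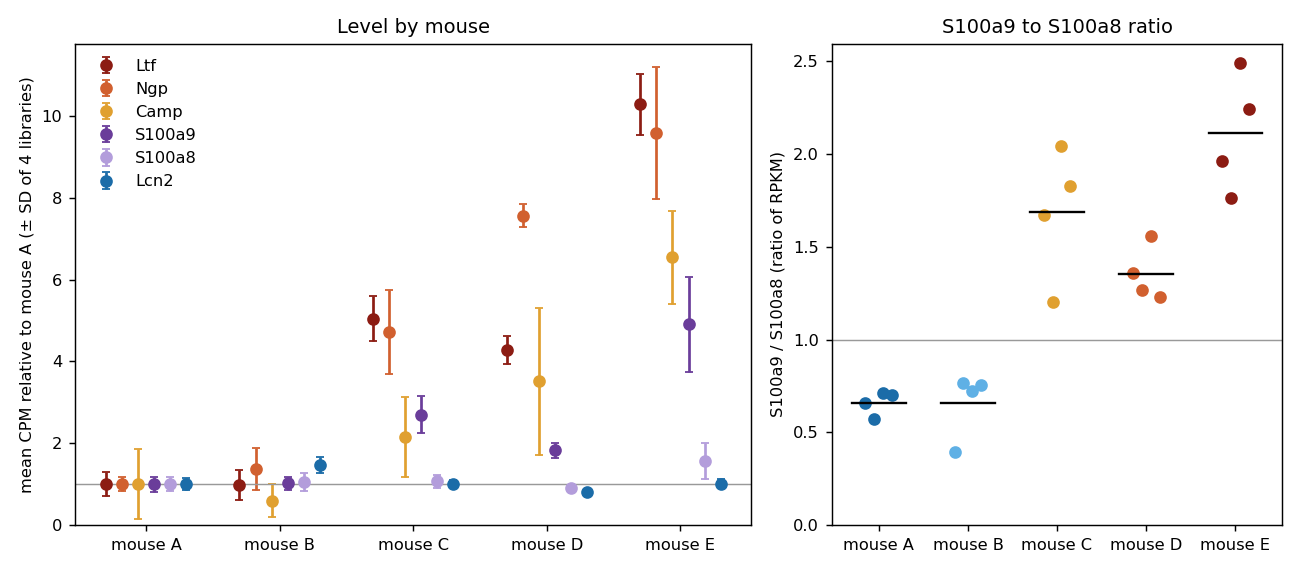
Left, mean CPM of 6 granule genes in each mouse relative to mouse A (± SD of the 4 libraries of that mouse, divided by the mean of mouse A); right, the ratio of S100a9 to S100a8 in reads per kilobase in each library, with the mean per mouse as a bar. Ltf, Ngp, Camp and S100a9 are highest in mouse E, S100a8 and Lcn2 vary less, and the ratio is below 1 in every library of mice A and B.

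Markers of other cells moved with the same mice. A mouse, its culture and any library batch cannot be told apart here. The summed level of the 10 eosinophil markers averaged 92.6, 85.2, 165, 212 and 164 CPM in mice A to E, with Prg2, the eosinophil major basic protein gene, at 16.9, 14.4, 56.0, 57.1 and 46.3. The 14 mast cell and basophil markers averaged 19.4, 18.4, 43.4, 35.2 and 41.8 CPM in sum, of which Kit made up 10.9, 9.55, 29.4, 24.4 and 27.7, while Mcpt2, Mcpt4 and Tpsab1 were at 0 in every library and Cpa3 (686 counts in all), Prss34 (126), Tpsb2 (47), Mcpt8 (32), Ms4a2 (26) and Cma1 (15) were detected. The 14 dendritic cell markers averaged 6910, 6210, 9700, 11200 and 9620 CPM in sum. Of the 13 tested, 12 had lower means in mice A and B than in all of C, D and E, beside 26.2% of all genes tested. The other, Itgax, had higher ones (2510, 2220, 1810, 2110 and 1870 CPM). The 10 macrophage markers summed to 3790, 3170, 2270, 2380 and 2410 CPM, mostly Gpnmb (2420, 1880, 1200, 1220 and 1290). Of these, 6 had higher means in mice A and B than in all of C, D and E, beside 27.7% of all genes tested. Lower means were found in 1, Marco (51.4, 34.4, 87.5, 76.8 and 88.0), named after its values were seen, beside 26.2% of all genes. The 9 monocyte markers summed to 6520, 7490, 5070, 5250 and 4720 CPM, mostly Fn1. Hbb-bt, a globin gene of red cells, was at 1.21, 0.929, 7.41, 5.63 and 7.97 CPM. Pf4, from the same list of other lineages, ran the other way, at 102, 88.6, 75.1, 54.9 and 38.6 CPM. Of the 5 tested genes of that list, 3 had lower means in mice A and B and 1 had higher ones, too few to set apart from those shares. Of those tested, 9 of 9 eosinophil, 3 of 4 mast cell and basophil, 13 of 13 dendritic cell, 10 of 10 macrophage, 8 of 8 monocyte, 4 of 5 other lineage markers and 11 of 12 cell division genes differed between mice, beside 49.2% of all genes. The part of these cells in the levels of the granule genes was not tested.

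Many other neutrophil genes had the order of mice seen for Ltf. Of 16 tested surface and maturation genes, 10 had lower means in mice A and B than in all of C, D and E, and 3 had higher ones, beside 26.2% and 27.7% of all genes tested. Among the 10, chosen after their values were seen, were Itgb2l (0.0468, 0.206, 0.949, 1.05 and 1.00 CPM in mice A to E), Cd177 (0.431, 0.477, 1.05, 1.09 and 1.94) and Retnlg (0.450, 0.434, 1.21, 0.930 and 1.26). Fpr1 (14.8, 12.0, 7.57, 7.19 and 8.82), a formyl peptide receptor gene that monocytes also use, was among those higher in mice A and B. The sum of all 20 genes, in which Fpr1, Fpr2, Trem1 and Il1r2 weigh most, was flat, at 93.1, 90.2, 89.6, 78.1 and 93.5 CPM, and Ly6g, the usual surface marker, is not analysed here. Of 15 tested genes for other granule and secreted proteins, 3 had lower means in mice A and B than in all of C, D and E, and 9 had higher ones. The lower ones were Mmp25 (19.4, 25.6, 67.5, 63.7 and 59.5), Pglyrp1 (3.25, 3.15, 8.13, 7.09 and 7.70) and Adam8 (372, 353, 418, 377 and 399). Lyz2 (16900, 15300, 10600, 12900 and 11200 CPM) and Chil3 (20400, 19500, 10900, 11200 and 14300), which macrophages also make, were among the higher ones. So was Mmp8, a neutrophil marker gene (829, 752, 501, 482 and 425 CPM). These counts describe the order of means and were chosen after the values were seen.

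Lists of further neutrophil genes, some of which other cells also use, were compared between iBET and DMSO. These lists were chosen with earlier results of these data known. Of 16 tested surface and maturation genes, 0 were higher and 9 lower with iBET in Ova, beside 27.7% and 28.9% of all genes, and 0 and 8 in IC, beside 27.1% and 29%, with a median log2 fold change of -0.70 in Ova and -0.78 in IC, beside -0.0029 and -0.0054 over all genes. Fpr1 fell from 16.2 to 1.00 CPM in Ova (log2 fold change -4.02, adjusted p = 2.06e-09), and Fpr2, a related receptor, from 26.6 to 5.96 (-2.16, adjusted p = 3.84e-07). Il1r2, the decoy receptor for interleukin-1, fell by 0.65 on the log2 scale in Ova (adjusted p = 0.0398) and not past the threshold in IC (-0.33, adjusted p = 0.282). The list did not move as a whole. In Ova, Cxcr2 fell (-2.08, adjusted p = 0.00054), whereas Retnlg (-0.015, adjusted p = 0.979) and Cd177 (0.068, adjusted p = 0.922) did not pass. These genes were named after their values were seen. The summed level of the list was 100 to 153 CPM in DMSO Ova and 44.8 to 56.5 in IBET Ova. Fpr1, Fpr2, Il1r2 and Trem1 (23.3 to 10.6 CPM) weigh most in this sum, so it does not stand for each gene of the list.

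Of 9 tested transcription factors of granulopoiesis, 6 were lower and 1 higher with iBET under each stimulus, beside 28.9% of all genes lower in Ova and 29% in IC (median -0.80 in Ova and -0.72 in IC). The lower ones in Ova included Spi1, which encodes PU.1 (193 to 32.3 CPM in Ova, log2 fold change -2.57, adjusted p = 2.66e-14), Runx1 (151 to 59.2 CPM, -1.35, adjusted p = 1.05e-09) and Cebpb (213 to 162 CPM, -0.39, adjusted p = 0.0289). Irf8, which favours monocytes over granulocytes, was at -0.68 (adjusted p = 0.0587). The factor most tied to secondary granules, Cebpe, went from 5.95 to 1.22 CPM (-2.28, adjusted p = 3.42e-07), and Cebpd, the 1 that rose, from 20.6 to 53.9 CPM (1.39, adjusted p = 9.07e-09). Both were named after their values were seen. Ltf and Ngp, secondary granule genes, did not pass the test in the same libraries.

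Among 15 tested genes for other granule and secreted proteins, 2 were lower and 0 higher with iBET under each stimulus, beside 28.9% and 27.7% of all genes in Ova and 29% and 27.1% in IC, with a median of 0.04 in Ova and 0.05 in IC. The lower ones were Mmp25, a membrane-bound metalloprotease of neutrophils (76.4 to 18.9 CPM in Ova, log2 fold change -2.02, adjusted p = 0.0016), and Adam8, a surface metalloprotease (440 to 191 CPM, -1.21, adjusted p = 2.40e-10). Lyz2 (0.21, adjusted p = 0.335) and Chil3 (0.25, adjusted p = 0.420), the highest genes of this list, did not pass. Of 11 tested genes of granule assembly, release and protease control, 6 were lower in Ova, beside 28.9% of all genes, and 5 in IC, beside 29% (median -0.21 and -0.22), with 1 higher in IC. Unc13d, which primes granules for release, went from 50.8 to 14.8 CPM in Ova (-1.78, adjusted p = 9.24e-10), and Vamp8, a fusion protein of granule membranes, from 104 to 62.0 CPM (-0.75, adjusted p = 8.32e-08). Ap3b1, a subunit of the AP-3 adaptor that sorts granule cargo, was 0.21 lower (adjusted p = 0.0119). Ctsc, the protease that activates Elane, Prtn3, Ctsg and their relatives, was at 0.12 in Ova (adjusted p = 0.265) and 0.22 in IC (adjusted p = 0.0345).

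**Figure D5:**
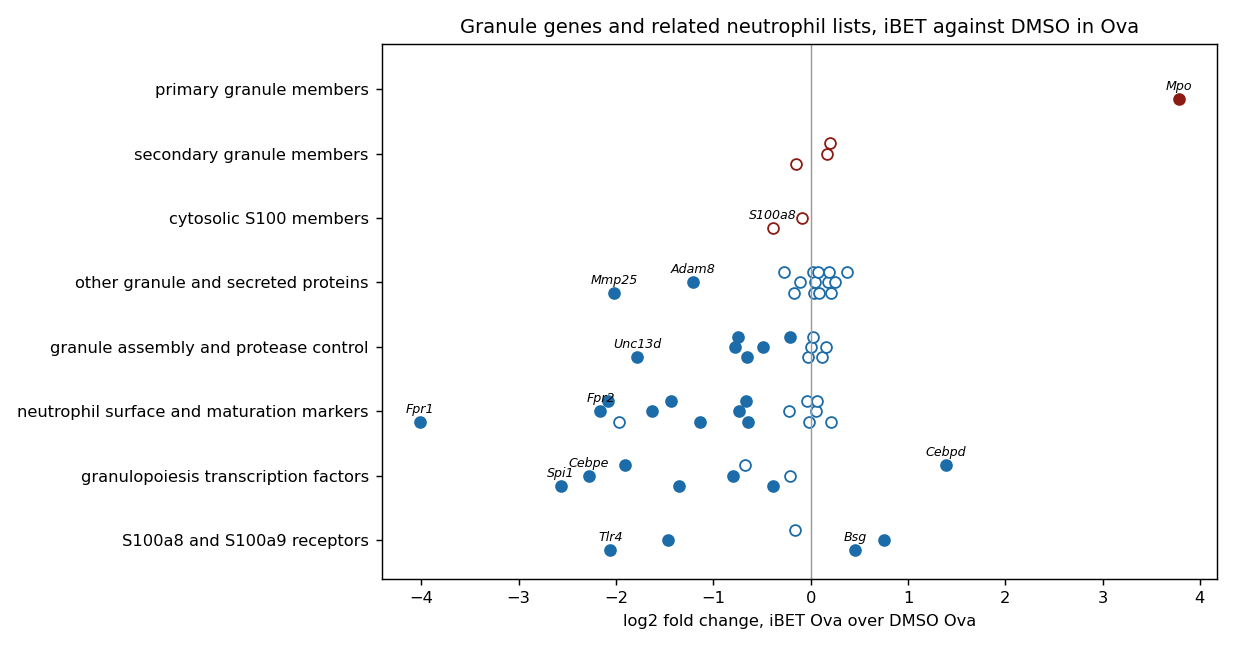
Log2 fold change of each tested gene with iBET in Ova, by list; red points are the granule genes described here and blue points the genes of related lists, filled where the adjusted p is under 0.05, and the vertical offset within a list only separates points. Mpo, which passed the filter on low counts through the iBET groups alone, lies furthest to the right at 3.79. Fpr1 lies furthest to the left at -4.02.

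Of 5 tested receptor genes for S100a8 and S100a9, 2 were higher and 2 lower with iBET in Ova, beside 27.7% and 28.9% of all genes, and 1 higher and 3 lower in IC, beside 27.1% and 29%. A list this small cannot be set apart from those shares. Tlr4, the Toll-like receptor that binds calprotectin, went from 351 to 84.0 CPM in Ova (log2 fold change -2.06, adjusted p = 1.16e-08), and Cd33 from 82.5 to 29.9 CPM (-1.47, adjusted p = 2.42e-05). Bsg rose from 171 to 235 CPM (0.46, adjusted p = 0.00429). Cd36, a scavenger receptor, was at -0.16 in Ova (adjusted p = 0.272) and fell by 0.52 on the log2 scale in IC (adjusted p = 0.00139).

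Markers of other cells were also compared between iBET and DMSO. In Ova, 4 of 9 eosinophil, 1 of 4 mast cell and basophil, 4 of 8 monocyte, 3 of 10 macrophage and 4 of 13 dendritic cell markers were lower and 0 higher, beside 28.9% of all genes lower and 27.7% higher. Lists this small, several of them near the share of all genes, cannot each be set apart from it. Of 12 cell division genes, 2 were higher and 3 lower, and of 5 tested markers of other lineages 0 were called. Ccr3, an eosinophil chemokine receptor gene, was at -2.33 (adjusted p = 5.70e-07), Ccr2, that of monocytes, at -5.02 (adjusted p = 7.37e-12), and Ciita, the regulator of MHC class II, at -4.99 (adjusted p = 1.57e-07). These had the smallest adjusted p of their lists. Of the genes with the highest means in those lists, Ear2 (-0.985, adjusted p = 0.0154) and Csf1r (-0.826, adjusted p = 3.23e-05) were lower. Prg2 (-0.073), Fn1 (0.032), Cd74 (0.252) and Itgax (0.103) did not pass, with adjusted p from 0.429 to 0.927. Over groups, the summed eosinophil markers ranged from 96.1 to 242 CPM in DMSO Ova and from 60.9 to 154 in IBET Ova, and the summed macrophage markers from 1950 to 3680 and from 1990 to 3290. The part of such shifts in the iBET differences of Mpo and S100a8 was not tested.

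The genes whose levels went most closely with the granule genes over the 20 libraries were sought among 9623 tested genes with a mean of at least 5 CPM. For Mpo, the 1 tested primary granule gene, they were Gfod1 (Pearson r = 0.966 of log2 CPM), Ercc5 (0.958), Gopc (0.957), Atg4d (0.956) and Wdr47 (0.954), each higher with iBET in Ova by 0.52 to 1.07 on the log2 scale. For the mean of Ltf, Ngp and Lcn2 they were Sart1 (0.848), Nob1 (0.815), Preb (0.814), Stat2 (0.806) and Kcp (0.802). That mean mixes genes with unlike orders of mice: over the 20 libraries Lcn2 correlated negatively with Ltf (-0.421) and with Ngp (-0.485). Once group and mouse means were taken out, these correlations were positive (0.261 and 0.475). The genes closest to S100a8 and S100a9 were Mrps10 (0.839), Dhps (0.828), Uri1 (0.808), Ptp4a3 (0.787) and Pacsin2 (0.785). The last 10 genes passed no test for iBET in Ova, with adjusted p from 0.138 to 0.925, and all had a higher mean in mouse E than in mouse A. These are descriptions over libraries that share mice and treatments, and the traits listed follow in part from how the genes were chosen.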

How the data were processed

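Bulk RNA was measured in 20 BMDC libraries (4 groups, 5 mice). Per the labels and methods, the authors trimmed reads (Trim Galore), aligned them to mm10 (HISAT2) and made deposited counts per gene with featureCounts; versions, strand setting and annotation are not given in the sources used here. A second deposited table holds a normalised signal, the counts divided by a size factor per library (largest relative difference to DESeq2's own factors 2.22e-16). The counts were analysed in R 4.3.3 with edgeR 4.0.16: filterByExpr (minimum count 10), TMM, quasi-likelihood tests on group over all 20 libraries, Benjamini-Hochberg over 12465 genes, threshold 0.05. Levels are TMM-scaled CPM, and log2 CPM used a prior count of 2. The code was tested on simulated data.

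Libraries of a mouse come from the same animal. As a check, deviations from group means correlated at 0.307 to 0.675 between libraries of the same mouse (mean 0.524, 30 pairs) and on average at -0.156 between mice, so the mouse served as the block. Replicates of a group differed by more than counting error (chi-square per degree of freedom of 12.6 or more in 40 pairs). Alternatives used DESeq2 1.42.0, sva 3.50.0 (2 surrogate variables) and limma 3.58.1 on log2(signal + 1).

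The genes and lists were chosen with earlier results of these data known. All 10 granule genes were named, with, from each list, the 2 tested genes of highest mean CPM and the 2 of smallest adjusted p for iBET in Ova, and for each class of granule genes the 5 most correlated genes. Exact permutation tests of Prtn3, Camp and the S100a9 to S100a8 ratio were added after the data were seen.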

Additional observations from a re-analysis of the deposited data

Results flagged for a closer look

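In 24 combinations of a tested granule gene and a group, each with 5 libraries, 2 held a library far from the others by Dixon's ratio of gap to range on log2 CPM (critical value 0.71), where chance flags about 5% of groups. Mpo in IBET Ova was lowest in mouse A at 0.162 CPM, against 0.467 to 0.586 in the other mice (ratio 0.804). S100a8 in IBET IC was highest in mouse E at 9.18 CPM, against 7.25 to 7.73 in the others (ratio 0.732). No granule gene had an iBET effect that differed between Ova and IC by the test of that difference.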

How the results depend on the processing

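Of 373 alternative values for the 6 tested genes in 4 comparisons, 343 kept their direction and side of the threshold, 12 newly passed it, 1 lost it and 17 changed sign. The count of genes higher with iBET (1, Mpo) became 0 in both stimuli when only the 10 libraries compared were fitted, since Mpo then fell under the filter, and 0 in Ova in mice A and B alone. The count lower (0) became 1 (S100a8) in Ova and IC with the replicate block (edgeR or DESeq2) and 1 in Ova in mice A and B alone. When each mouse was left out, it ranged from 0 to 1 in Ova and stayed at 0 in IC. For IC against Ova, 2 were lower in DMSO and 1 in iBET with the block, by edgeR and by DESeq2. The block changed no other call.

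None of the values that changed sign had passed a threshold in either fit, and the cause was not tested. For iBET these were S100a9 in Ova (0.0937, mice A and B) and, in IC, Lcn2 (-0.0282, mice C, D and E) and Ngp without 1 mouse each (-0.31 to 0.12). For IC against Ova in DMSO they were Mpo (0.77, mice C, D and E, and -1.28 to 0.80 without each mouse) and Ngp (0.0183 with surrogate variables, 0.0757 in limma, and -0.127 to 0.0808 without each mouse). In iBET they were Ltf (-0.0027) and Lcn2 (-0.0285) with library size only, Lcn2 (-0.0966, mice C, D and E) and Ngp (0.0199 and 0.0266 with the block in edgeR and DESeq2, 0.0407 with surrogate variables, 0.0522 in limma, and -0.17 to 0.14 without each mouse). With library size only, the median log2 fold change of all genes for IC against Ova was -0.13 in DMSO and -0.12 in iBET, against -0.024 and -0.014 with TMM. The number of genes that differed between mice (5) was 4 to 5 without each mouse and 6 without the filter. Interaction values of single genes were not repeated. Mpo, Prtn3, Elane, Ctsg and Camp are limited by depth, with at most 22 counts in a library.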
